A study of Caenorhabditis elegans with 28 samples.

Results

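LAG-1 regions on the X chromosome of Caenorhabditis elegans are stretches of chromosome X where the authors called a peak in at least 1 of 4 LAG-1 chromatin immunoprecipitation libraries. They were chosen by merging the peaks of all 14 immunoprecipitation lists wherever peaks overlapped by at least 1 bp, and keeping the X regions that held a LAG-1 peak, with or without peaks of other libraries. This gave 453 regions, against 2675 autosomal LAG-1 regions selected in the same way, so X held 453 of 3128 LAG-1 regions. Of the 24961 regions with a peak of any library, 4122 were on X. Since LAG-1 peaks selected the regions, their LAG-1 values are a description of peaks that passed the authors' thresholds, and only differences between X and autosomes, selected alike, were tested.

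LAG-1, a CSL protein, is the factor of the worm's Notch pathway that binds DNA, and the freed intracellular domain of the receptors GLP-1 and LIN-12 joins it in the nucleus to switch on target genes. GLP-1 signalling keeps germline stem cells dividing. The X chromosome is a particular setting for such a factor, because much of it is kept silent in the germline and because in the soma of hermaphrodites a dosage compensation complex lowers its transcription.

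Chromatin came from whole L4 larvae grown at 20 °C, and 10 µg of antibody and 4 mg/mL of extract were used. LAG-1 carrying an N-terminal tag (strain pJK1689, libraries a, b, c and e) and GLP-1 carrying a C-terminal tag (strain pJK1662, titled nicd, here Notch a to d) had 4 libraries each, and control worms with Flag- and Myc-tagged GFP (strain pJK1728) had 3 libraries titled Flag (a, b, c) and 3 titled Myc (a, c, d), each library with an input sample of its own. The labels give the 9E10 Myc antibody for LAG-1 and Notch samples and the M2 Flag antibody for Flag and Myc samples alike, so which control matches which target is unclear and all 6 were pooled. What drives each tagged protein, the sex of the animals and whether untagged protein remained are not stated in the labels. In whole animals, binding in fewer cells and less binding per cell cannot be told apart.

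LAG-1 libraries held 9.37 to 19.8 M tags and 505 to 1965 peaks, of which 64 (a), 237 (b), 118 (c) and 315 (e) were on X. Notch c, Myc a and Myc c each held over 5000 peaks, while the other 7 Notch and control lists held 44 to 826. A peak's tags are counted over its list's own peak width, which was 291 to 331 bp in LAG-1 lists, 194 to 299 bp in Notch, 163 to 272 bp in Flag and 156 to 234 bp in Myc lists. Normalized tag counts of different groups are therefore given side by side and not compared. Folds rest on a scaling that differed between LAG-1 a and b and the other lists. A fold is therefore likewise not compared between libraries, except where results are flagged for a closer look. Regions are named by their ce10 coordinates. Genes were not assigned, as a ce10 annotation was not used here.

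The X chromosome carried LAG-1 regions at a lower density than chromosomes I to IV and at nearly the density of chromosome V. X held 25.6 regions per Mb of covered chromosome, against 34.9 on I, 35.5 on II, 36.2 on III, 33.0 on IV and 25.4 on V, and 32.4 over the autosomes together. X made up 17.7% of the covered length and 14.5% of the regions. By library, X held 3.61 (a), 13.4 (b), 6.66 (c) and 17.8 (e) regions per Mb, and the autosomes 5.34, 15.7, 11.7 and 20.0 in the same order. X was thus lower in 4 of 4 libraries. The log2 ratio of X to autosomal density was -0.45 ± 0.30 (SD, n = 4), which did not pass the test (exact two-sided sign-flip permutation p = 0.125, the smallest that 4 libraries allow, adjusted p = 0.417). In the 6 controls the same ratio was also below 0 in every library, and LAG-1 differed from them by -0.20 (exact two-sided permutation p = 0.233, adjusted p = 0.583). This difference was -0.07 without LAG-1 c, -0.02 against the Flag controls alone and -0.37 against the Myc controls alone. Against chromosome V alone the LAG-1 ratio was 0.01, and with the same number of best peaks from every LAG-1 list it was -1.07.

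**Figure D1:**
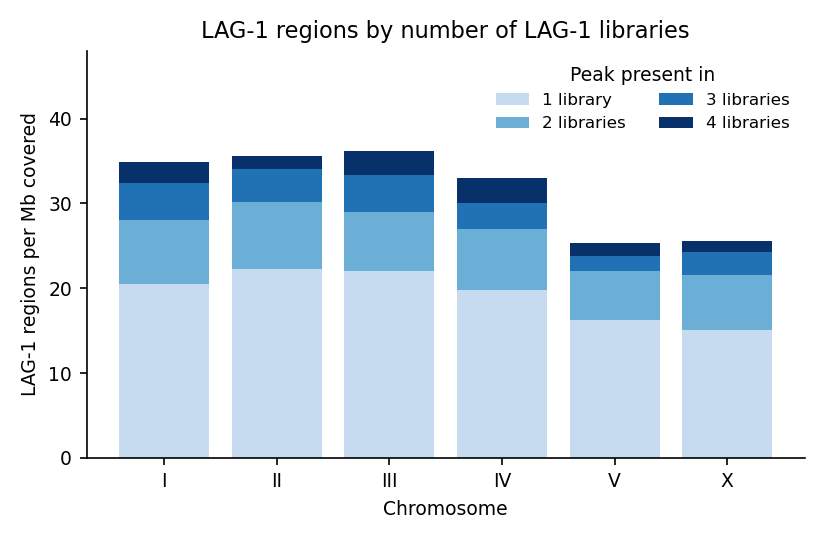
LAG-1 regions per Mb of covered chromosome (vertical axis, bars from 0) on each chromosome, stacked by the number of LAG-1 libraries with a peak. X, at 25.6 per Mb, stands beside V at 25.4 and below the other autosomes, and its segment for peaks in 4 libraries is the thinnest of the 6.

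The share of X regions found in several LAG-1 libraries was slightly above the autosomal share at 2 or more libraries and below it at 3 or more and at all 4. Of the 453 X regions, 267 had a peak in 1 LAG-1 library, 114 in 2, 49 in 3 and 23 in 4. A peak in at least 2 libraries was present at 186 X regions (41.1%), against 38.7% of autosomal and 39.1% of all LAG-1 regions. At least 3 libraries had a peak at 72 X regions (15.9%), against 17.2% of autosomal and 17.0% of all LAG-1 regions. All 4 had one at 23 X regions (5.08%), against 6.88% of autosomal and 6.62% of all LAG-1 regions. Per Mb, regions in all 4 libraries numbered 1.30 on X and 2.23 on the autosomes, and chromosomes II and V, at 1.44 and 1.53, were the closest to X. As the same lists selected the regions, these shares are a description.

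Within each list, the X regions also found in another LAG-1 list made up 95.3% (a), 74.3% (b), 42.4% (c) and 57.1% (e), and the autosomal ones 96.4%, 72.7%, 39.1% and 58.8%. X was higher in b and c and lower in a and e. The difference of 0.539 ± 2.30 percentage points (SD, n = 4) was smaller than the spread between libraries (exact sign-flip permutation p = 0.75, adjusted p = 0.833). It was negative without LAG-1 b or e, at -1.04 and -0.732 points.

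The libraries contributed unequally to the X regions. LAG-1 e alone supplied 135 of the 267 single-library regions, c 68, b 61 and a 3. Of the 1639 single-library regions on the autosomes, e supplied 680, c 589, b 354 and a 16. The commonest combination of lists was b with e and no other, at 98 X regions (21.6%) and 429 autosomal regions (16.0%). Lists a, b and e without c shared a further 34 X regions (7.51%) and 184 autosomal regions (6.88%). Lists b, c and e without a shared 15 (3.31%) and 79 (2.95%). Counted as shares of each list, 59 X regions common to a and b were 92.2% of those in a and 24.9% of those in b, and 46 common to c and e were 39.0% of those in c and 14.6% of those in e. On the autosomes these shares were 88.9% and 30.2% for a and b, and 34.3% and 20.1% for c and e.

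Single-library regions made up 58.9% of X, 61.3% of autosomal and 60.9% of all LAG-1 regions. Pooled over the lists, their median fold over input was 4.85 on X and 5.14 on the autosomes, where the authors' threshold was 4. The lists entered this pool in unlike proportions on X and on the autosomes. Within lists, the X and autosomal medians were 7.76 and 7.105 in a (3 X regions), 4.73 and 5.215 in b, 4.49 and 4.61 in c, and 5.14 and 6.17 in e. The 267 regions just inside the rule, with 1 LAG-1 library, had the pooled median fold of 4.85, a median normalized tag count of 149 tags per 10 M and a median focus ratio of 0.771. The 3669 X regions just outside it, which held peaks of other libraries only, had medians of 5.01, 99 and 0.836. The latter come from lists with other peak widths and scaling, so the contrast is no measure of LAG-1 signal. The focus ratio is the fraction of a peak's tags found on the side of its centre that matches their strand, and the fold is the authors' own value for each peak over its input.

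Peaks on X were lower than autosomal peaks in each LAG-1 list, by an amount that varied between libraries. The median normalized tag count of X peaks was 176 in a, 193 in b, 138 in c and 187 in e. That of autosomal peaks was 194, 205, 139 and 244.5 in the same order. X was lowest of the 6 chromosomes in a, b and e, and in place 3 from the lowest in c. The log2 ratios were -0.14, -0.09, -0.01 and -0.39, with a mean of -0.16 ± 0.16 (SD, n = 4), and did not pass the test (exact sign-flip permutation p = 0.125, adjusted p = 0.417). Without LAG-1 e the mean was -0.08. The LAG-1 ratio lay 0.10 below that of the controls on the log2 scale (difference -0.10, exact permutation p = 0.352, adjusted p = 0.705). By control, the ratio was 0.08 in Flag a, -0.36 in Flag b with 6 X peaks, -0.10 in Flag c and 0.02 in each Myc list. The difference was -0.16 without Flag b, -0.03 against the Flag controls alone and -0.18 against the Myc controls alone.

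The focus ratio of X peaks did not have a common direction. Its median on X was 0.722 (a), 0.742 (b), 0.772 (c) and 0.779 (e), and on the autosomes 0.740, 0.742, 0.769 and 0.75. X was the lowest of 6 chromosomes in a and the highest in e. The mean difference was 0.00325 ± 0.0196 (SD, n = 4; exact sign-flip permutation p = 0.75, adjusted p = 0.833), and -0.00533 without LAG-1 e. It differed from that of the controls by 0.00075 (exact permutation p = 0.952, adjusted p = 0.952).

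**Figure D2:**
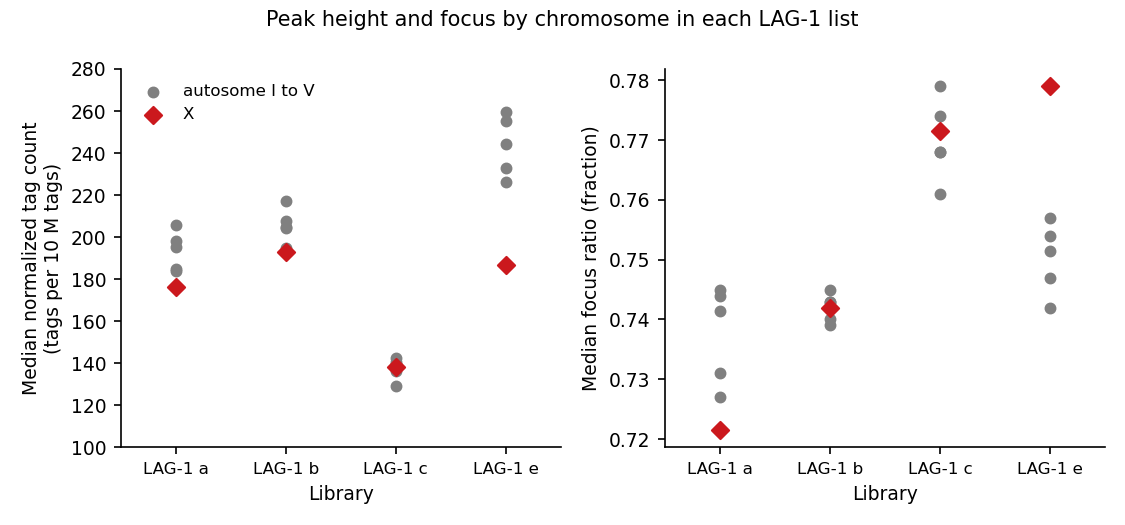
Median normalized tag count in tags per 10 M (left, axis from 100) and median focus ratio as a fraction (right, axis from about 0.72) of the peaks in each LAG-1 list, with 1 red diamond for X and 1 grey point for each autosome. X is the lowest for tag count in a, b and e, and its focus ratio is lowest in a and highest in e.

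The fold over input and the fold over the surrounding 10 kb put X on opposite sides of the autosomes. These comparisons, like those of list places, equal groups of the list, library pairs and counts by part of the chromosome, were chosen after values had been seen and carry no test. The median fold over input of X peaks was 5.70 (a), 5.36 (b), 4.66 (c) and 6.06 (e), and of autosomal peaks 6.56, 6.185, 4.80 and 7.40. Local fold medians on X were 5.255, 5.81, 4.82 and 6.40, and on the autosomes 5.03, 5.22, 4.82 and 5.42. X thus lay below the autosomes in fold over input in 4 of 4 lists, and above them in local fold in 3 of 4, with equal medians in c. Median input tags at X and autosomal peaks were 32 and 31 in a, 59 and 56 in b, 32.6 and 32.4 in c, and 28.8 and 31.3 in e. Their part in the fold was not tested.

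When each LAG-1 list was divided into 5 equal groups by fold over input, the mean X share was lower in each higher group. It was 19.5% ± 3.65 in the group with the lowest folds, then 16.3% ± 4.23, 14.2% ± 4.03 and 11.9% ± 2.03, and 6.92% ± 1.63 in the group with the highest (SD, n = 4). Ordered by normalized tag count, the share went from 18.0% ± 8.68 to 8.53% ± 3.56. Ordered by local fold it went the other way, from 8.998% ± 1.44 to 20.3% ± 5.99. In the Myc and Notch lists with at least 100 peaks in a group, 2 of each, the share by fold over input was 17.1% ± 0.362 and 17.5% ± 1.57 in the lowest group and 14.4% ± 0.817 and 16.1% ± 4.48 in the highest (SD, n = 2 each). Among shorter lists, the share in Notch d went from 25% of 60 peaks to 4.92% of 61, in Flag a from 16% to 3.85% and in Flag c from 25% to 11.8%, while Notch b, Flag b and Myc d held 0 to 7 X peaks per group with no order. By fold over input, a share that was lower in the highest group than in the lowest was thus also found outside the LAG-1 lists. Notch a went the other way, from 16.4% to 19.3%. By normalized tag count the mean share rose in the 2 Myc lists (12.6% to 17.8%) and the 2 Notch lists (12.7% to 21.9%). Shorter lists went both ways by tag count, from 12% to 19.2% in Flag a and from 12.5% to 5.88% in Flag c. By local fold it went from 15.7% to 16.5% in Myc and from 17.1% to 18.0% in Notch lists. Whether LAG-1 lists differ from the others was not tested.

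**Figure D3:**
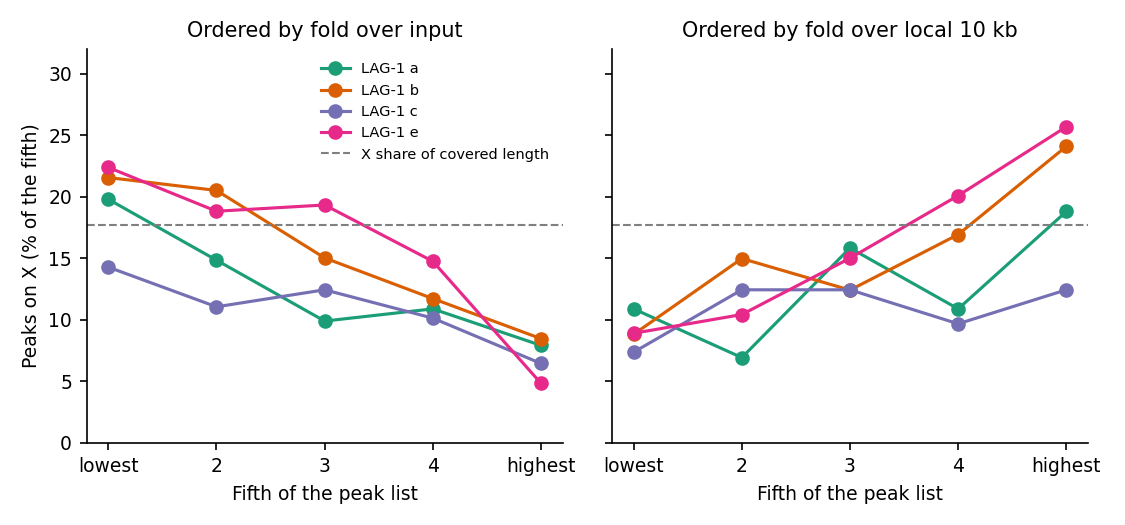
Percent of peaks on X (vertical axis) in each of 5 equal groups of the 4 LAG-1 lists, ordered by the authors' fold over input (left) and over the local 10 kb (right), with 1 coloured line per library and the X share of covered length (17.7%) dashed. The means run from 19.5% to 6.92% on the left and from 8.998% to 20.3% on the right.

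The strongest X peak stood below the strongest autosomal peak in each list. The highest fold over input on X was 26.4 (a), 15.0 (b), 7.34 (c) and 17.1 (e), and on the autosomes 167, 94.5, 28.5 and 89.4. In a, chromosome X was not the lowest by this measure. The first X peak came in place 13 of 505 in a, 32 of 1533 in b, 69 of 1085 in c and 125 of 1965 in e. Of the first 100 places, X peaks took 8, 6, 6 and 0. The best X peak of b and of e lay in the same region, X from 10770948 to 10771329. Its normalized tag counts were 413.5 (a), 565 (b) and 594 (e) per 10 M, with folds over input of 14.6, 15.0 and 17.1 in the same order, and LAG-1 c had no peak there. The one other list with a peak there was Myc a.

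The 23 X regions with a peak in all 4 LAG-1 libraries were the most reproducible of the set. The mean of their 4 folds had a median of 7.49 and ran from 5.11 to 11.9, and the autosomal regions in all 4 libraries had a median of 9.71. Chromosome medians ranged from 9.28 on I to 10.4 on II among the autosomes, so X had the lowest of the 6. When all 207 four-library regions were ordered by mean fold rank, the first X region came in place 52 and the second in place 56.

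The first X region in the order, X from 14525534 to 14526073, had normalized tag counts of 341 (a), 397 (b), 239 (c) and 504 (e) per 10 M. Its folds over input were 17.4, 11.4, 5.37 and 13.4 in the same order. It also held a peak of Myc a at 132 tags per 10 M, of Myc c at 115 and of Notch a at 135, the Myc a and Notch a peaks being 156 and 194 bp wide. Its mean focus ratio of 0.628 ± 0.0640 (SD, n = 4) was among the lowest of the first 20 regions.

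The second, X from 2996943 to 2997360, had counts of 282 (a), 381 (b), 195 (c) and 416 (e) tags per 10 M, with folds of 18.02, 12.4, 5.94 and 9.82. Notch c and Notch d had peaks there of 124 and 189 tags per 10 M, and Myc a and Myc c of 116 and 211. With peaks in 8 of the 14 lists, this region and X from 16930660 to 16931884 were the X regions present in most lists. The latter is the longest X region at 1224 bp and of all LAG-1 regions, the longest autosomal one measuring 826 bp, with peaks of LAG-1 b and c only at 324 and 180 tags per 10 M, of 2 Notch libraries and of 4 controls (Flag b and all 3 Myc libraries). Peaks of separate libraries were chained there: those of LAG-1 b and c did not overlap each other. Its LAG-1 focus ratios were 0.513 and 0.652.

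The third region in the order, X from 16056276 to 16056741, had folds of 7.77 (a), 10.4 (b), 6.20 (c) and 11.2 (e), and the fourth, X from 2328862 to 2329240, had 8.88, 6.73, 7.34 and 14.2. Each held a peak of Myc a and no Notch peak. The sixth, X from 14063776 to 14064137, was the first in the order with no peak of any Notch or control library, at 296 ± 72.1 tags per 10 M and a focus ratio of 0.813 ± 0.0592 (SD, n = 4), the highest of the first 20. Region 11, X from 182254 to 182633, held the X peak with the highest fold in list a, 26.4, over 4 input tags. Its normalized tag counts were 103 (a), 109 (b), 104 (c) and 169 (e) per 10 M.

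**Figure D4:**
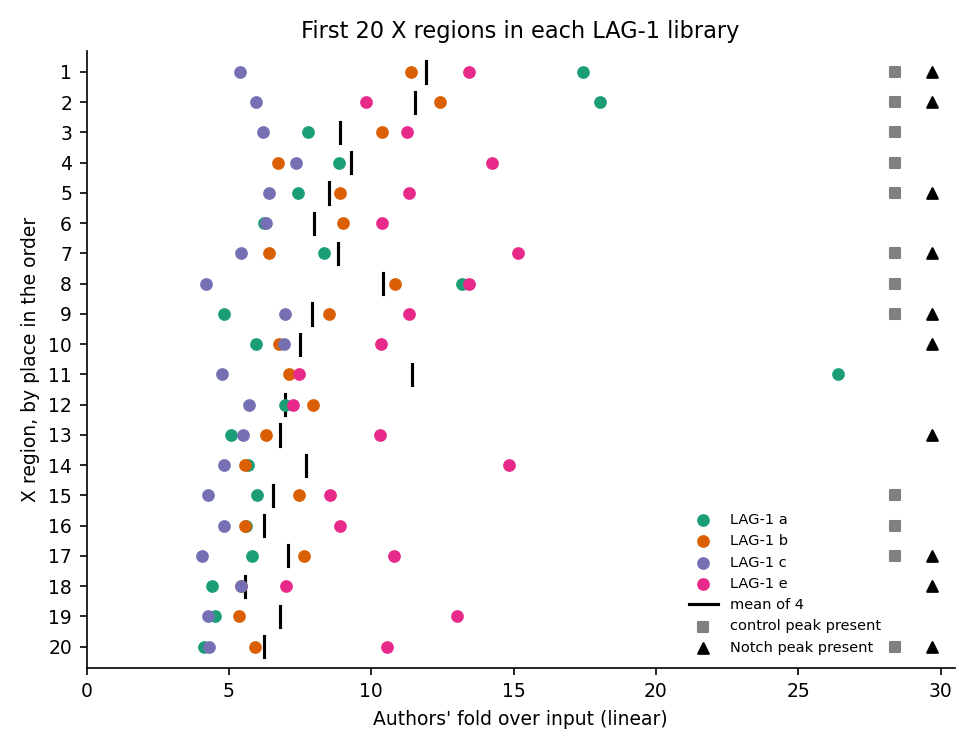
Authors' fold over input (horizontal axis, linear) of the first 20 X regions in each LAG-1 library (coloured points) with the mean of 4 (black tick), and squares and triangles for a control or a Notch peak in the region. Means run from 5.57 to 11.9, 12 regions hold a control peak and 10 a Notch peak.

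Over the first 20 X regions, mean folds ran from 5.57 to 11.9, mean normalized tag counts from 121 to 387 and mean focus ratios from 0.6245 to 0.813. Of these regions 12 had a control peak, all from Myc libraries, 10 had a Notch peak and 5 had neither. All 20 were in 4 LAG-1 libraries. Of the 184 autosomal regions in 4 LAG-1 libraries, 73 (39.7%) had a control peak, 50 (27.2%) a Notch peak and 86 neither. Over all LAG-1 regions, 16.0% had a control peak, 12.3% a Notch peak and 75.0% neither. These differences were not tested.

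Notch peaks in LAG-1 regions came mainly from 1 library, on X and on the autosomes. At least 1 Notch library had a peak at 66 X regions (14.6%), against 11.9% of autosomal and 12.3% of all LAG-1 regions. Of the 66, 48 (72.7%) had a peak of Notch c alone, against 238 of 319 (74.6%) on the autosomes. Without that library, which called 8261 peaks, 18 of 453 X regions and 81 of 2675 autosomal regions remained with a Notch peak. By library, 14 X regions held a peak of Notch a, 2 of b, 54 of c and 4 of d. As a percent of X minus percent of autosomal regions this was 0.997 (a), -0.381 (b), 2.24 (c) and -0.201 (d), a mean of 0.663 ± 1.22 points (SD, n = 4; exact sign-flip permutation p = 0.5, adjusted p = 0.759). Without Notch c the mean was 0.139.

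At least 2 Notch libraries had a peak at 8 X regions (1.77%), against 1.01% of autosomal and 1.12% of all LAG-1 regions. Peaks in at least 3 Notch libraries were present at 0 of the 453 X regions, 15 autosomal regions (0.561%) and 0.480% of all LAG-1 regions. Whether X differs in this was not tested. The 8 were X from 2996943, with all 4 LAG-1 libraries, the 1224 bp region with LAG-1 b and c, and 6 regions with LAG-1 a, b and e. These 6 were X from 1626789 to 1627343, from 4209076 to 4209477, from 806495 to 806848, from 9465576 to 9465969, from 13700571 to 13701033 and from 1389272 to 1389924, with mean LAG-1 counts of 242.5 to 365 tags per 10 M. The last was the only one of the 8 with no control peak, at 282 ± 70.5 tags per 10 M in LAG-1 (SD, n = 3) and 120 ± 21.4 in Notch libraries (SD, n = 2). Its peaks of Notch c (1389272 to 1389524) and Notch a (1389730 to 1389924) did not overlap each other, so this Notch mean covers separate places. The peaks of Notch c (to 1627041) and Notch a (from 1627139) in X from 1626789 did not overlap either.

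Control peaks were present at 80 X regions (17.7%), against 15.7% of autosomal and 16.0% of all LAG-1 regions. At 75 of the 80 (93.75%) they came from Myc a or Myc c only, against 377 of 420 (89.8%) on the autosomes. The 6 control libraries gave a mean difference, X minus autosomes, of 0.394 ± 1.06 points (SD, n = 6; exact sign-flip permutation p = 0.531, adjusted p = 0.759, smallest possible p before adjustment 0.0312). The difference was 2.47 points in Myc a, from -0.306 to 0.365 in the other 5 and -0.0644 on average without Myc a. At least 2 control libraries had a peak at 10 X regions (2.21%), against 2.13% of autosomal and 2.14% of all LAG-1 regions. At X from 8036245 to 8036640 all 3 Myc libraries had a peak, at 127 ± 27.7 tags per 10 M (SD, n = 3), and LAG-1 a, b and e had 394 ± 142 (SD, n = 3). Flag peaks occurred at 3 of 453 X regions and at 36 of 2675 autosomal regions in all.

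Control and Notch peaks were more frequent at the X regions found in more LAG-1 libraries. A control peak was present at 10.1% of X regions with 1 LAG-1 library, 19.3% with 2, 34.7% with 3 and 60.9% (14 of 23) with 4. On the autosomes the shares were 11.3%, 18.5%, 19.6% and 39.7%, and single autosomes ranged from 25% on V to 54.5% (12 of 22) on II among regions in all 4 libraries. For Notch peaks the X shares were 7.87%, 10.5%, 42.9% and 52.2%, and the autosomal shares 8.54%, 13.9%, 17.8% and 27.2%. The difference between X and autosomes at 3 and 4 libraries was not tested. Merged regions with more LAG-1 libraries were also longer, with medians of 330, 372.5, 406 and 441 bp on X for 1 to 4 libraries. On the autosomes they were 316, 362, 385 and 408.5 bp. Length spans the merged peaks of all lists, control and Notch peaks included, so it is not independent of these shares. Its part in them was not tested. Regions in at least 3 LAG-1 libraries with no control peak numbered 41 on X (9.05%), against 12.4% of autosomal and 11.9% of all LAG-1 regions, and 9 of the 41 had all 4.

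LAG-1 regions were unevenly spread along X, with more toward its right end. With each chromosome divided into 3 equal parts, the left part of X held 120 regions (20.3 per Mb), the middle part 138 (23.4 per Mb) and the right part 195 (33.0 per Mb). On the autosomes the parts held 33.3%, 33.4% and 33.3% of the regions. The right part of X thus had a density close to the autosomal mean of 32.4 per Mb, and its other parts lay below it. The right part held 48.4% (a), 43.5% (b), 41.5% (c) and 42.5% (e) of each list's X regions, a mean of 44.0% ± 3.07 (SD, n = 4), against 37.0% ± 3.37 for Myc (n = 3), 33.1% ± 7.09 for Notch (n = 4) and 26.7% ± 11.0 for Flag lists (n = 3). These means give short lists equal weight: Flag a, b and c held 16, 6 and 13 X regions, Notch b 4 and Myc d 22. In the longest lists the right part held 35.2% (Myc a), 35.0% (Myc c) and 34.7% (Notch c). The difference between LAG-1 and the other lists was not tested, and the right part of chromosome II held 38.9% of its regions. Among regions in at least 2, at least 3 and all 4 LAG-1 libraries the right part held 42.5%, 45.8% and 43.5% on X and 46.0%, 52.4% and 54.5% on II, higher on II in each case.

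The planned measure of position was the share in the middle part. It was 23.4% (a), 30.8% (b), 27.1% (c) and 32.4% (e) on X, and 32.4%, 36.4%, 27.9% and 36.7% on the autosomes. X was lower in 4 of 4 libraries, by 8.99 points in a but by only 0.803 points in c. The difference of -4.94 ± 3.38 points (SD, n = 4) did not pass the test (exact sign-flip permutation p = 0.125, adjusted p = 0.417). It was -1.56 points against chromosome II alone, -9.54 against V alone and -1.84 with a fold of at least 6.

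**Figure D5:**
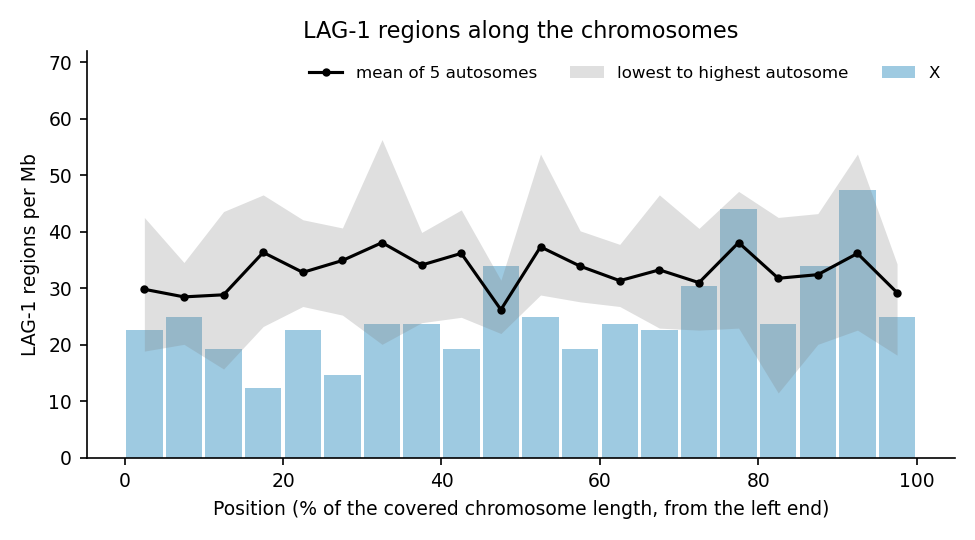
LAG-1 regions per Mb (vertical axis) along X (bars from 0) and along the autosomes (black line, mean of 5, with the lowest to highest autosome in grey), by position as percent of covered chromosome length. X bars lie below the mean autosome over most of the left part and reach or pass it at several places in the right part.

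In bins of 1 Mb, X regions numbered from 14 (4 to 5 Mb) to 45 (16 to 17 Mb), with 39 between 13 and 14 Mb and 35 between 8 and 9 Mb. Of the 23 regions in all 4 libraries, 8 lay in the left, 5 in the middle and 10 in the right part, against 3, 7 and 12 on chromosome II and 63, 64 and 57 on the autosomes together, and the bin from 14 to 15 Mb had the most, at 4. Neighbouring X regions were a median of 24.98 kb apart, against 18.0 to 24.6 kb on the autosomes. Close pairs held a share within the autosomal range, with 123 X regions (27.2%) within 5 kb of another and 25.2% to 29.1% on the autosomes. The longest stretch of X without a LAG-1 region was 275 kb, from 17181509 to 17456772, close to the right end and within the part where regions were densest.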

How the data were processed

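Peak lists of 14 immunoprecipitation libraries were used, of 28 samples. The 14 inputs entered only through the authors' calling. The submitters' processing notes name CASAVA 1.8, Bowtie, HOMER and build ce10. Each library was called with HOMER against its own input, per the file headers, at 4-fold or more over input and over the local 10 kb, with a false discovery rate of 0.01 for LAG-1 and Notch and 0.001 for controls, and the calling of targets and controls thus differed. The headers show immunoprecipitate tags scaled to input for LAG-1 a and LAG-1 b and input scaled for the others, so folds serve only within lists. Per the file headers, the deposited normalized tag count is a signal in tags per 10 M. Deposited tag counts and scaled input signals, fold ratios, the focus ratio (a fraction) and the peak score come from the authors' caller.

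Peaks overlapping by at least 1 bp, ends included, were merged over all 14 lists. Covered chromosome length is the last peak end over all lists. Each library gave 1 value for X and 1 for the autosomes. Differences were tested by exact sign-flip permutation over libraries, and LAG-1 against 6 controls by exact permutation of 210 label assignments, two-sided on the absolute difference, with 10 p-values adjusted by the Benjamini-Hochberg method. No result passed 0.05. The design text calls the replicates biological, and p-values measure the spread between these libraries. The statistics were tested on data with known answers. The named regions were the first 20, ordered by number of LAG-1 libraries and then mean percentile rank of fold, those with at least 2 Notch libraries, the 5 with most controls and those in most lists. The best X peaks of each list and other single regions were picked after their values were seen. Members and lists were chosen with earlier results of these data known. Python 3.11.15, numpy 2.4.6 and pandas 2.3.3 were used.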

Additional observations from a re-analysis of the deposited data

Results flagged for a closer look

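Of 73 groups of 4 to 6 libraries checked for a library apart from the others, 9 (12.3%) held one, where chance flags about 1 in 20, and the groups are not independent. In 6 of the 9 it was LAG-1 e. At X 2328862 to 2329240 the normalized tag count of LAG-1 e was 437.8, against 191 to 214 in the other 3 LAG-1 libraries. At X 14324115 to 14324554 it was 429.2, against 125 to 174, and the fold of LAG-1 e was 14.83, against 4.82 to 5.67. At X 15297352 to 15297811 the count of LAG-1 e was 365.2, against 158.5 to 193, and its fold 13.02, against 4.26 to 5.36.

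At X 182254 to 182633 the count of LAG-1 e was 168.7, against 103 to 109, while the fold of LAG-1 a was 26.41, against 4.76 to 7.46, over 4 input tags. The folds of LAG-1 a and b rest on another scaling than those of c and e, so the 3 fold values are weak grounds. The median count over the 23 X regions in all 4 libraries was also highest in LAG-1 e. It was 365.2 in e, against 172.3 (a), 215.8 (b) and 158.5 (c). On the autosomes it was 512.5 in e, against 256.8, 342.8 and 186.6. A higher count in LAG-1 e is thus not particular to the regions named here. At X 13448572 to 13448947 the focus ratio of LAG-1 c was 0.685, against 0.8 to 0.815. Among the 6 controls, the difference in peaks at LAG-1 regions, X minus autosomes, was 2.47 points in Myc a, against -0.306 to 0.365 in the others.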

How the results depend on the processing

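None of the 169 alternative values of the 10 tested results passed the adjusted threshold of 0.05, and 30 of them changed sign, so 139 kept direction and call. For the sign-flip tests the call could not have changed, for reasons given at the end of this section. With a fold over input of at least 6, recurrence was -0.839 points, focus ratio -0.001, control peaks -0.0113 points, and the differences from controls were 0.60 (log2 tag count) and -0.127 (focus ratio), with 1 Flag library lost from the latter comparisons. The density ratio was then -0.97. With the same number of best peaks from every list, recurrence was -2.13 points and focus ratio -0.0151. Taking means, the focus ratio difference was -0.00152 and that from controls -0.00552. Against a single autosome, recurrence was -1.68 (I), -0.554 (III) and -1.80 points (IV), density 0.0116 (V, and 0.15 for LAG-1 minus controls), control peaks -0.00694 (I) and -0.0186 points (III), the tag count difference from controls 0.13 (I), and the focus difference from controls -0.0202 (I) and -0.0015 (III). Recurrence was -0.0740 points with peaks up to 500 bp apart merged and -1.57 without regions holding a control peak. Without libraries of over 5000 peaks, control peaks were -0.117 points.

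Leaving out 1 library gave -1.04 to 1.63 points for recurrence, -0.21 to -0.08 for log2 tag count (the latter without LAG-1 e), -0.00533 to 0.0105 for focus ratio, -6.32 to -3.59 points for the middle part, -0.54 to -0.32 for log2 density, 0.139 to 1.38 points for Notch peaks and -0.0644 to 0.832 for control peaks. For LAG-1 minus controls it gave -0.16 to -0.02 (log2 tag count, the latter without LAG-1 e), -0.00783 to 0.008 (focus ratio) and -0.29 to -0.07 (log2 density, the latter without LAG-1 c). The focus difference from controls was -0.00645 without Flag a. Letters a to e are not stated to pair samples. With a replicate block over the letters shared by LAG-1 and controls, the differences were 0.0396 (log2 tag count, reversed), -0.0115 (focus ratio, reversed) and -0.21 (log2 density).

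Chosen after seeing the data, alternatives for the counts gave 193 X regions in place of 453 with a fold of at least 6, and 318 to 450 on leaving out 1 LAG-1 library. Regions in at least 3 libraries fell from 72 to 25 with that fold. On leaving out 1 library, where at least 3 means all that remain, they fell to 23 to 57 (38, 23 and 23 without a, b and e). Regions with a Notch peak fell from 66 to 15 with that fold and 18 without Notch c, the Notch library of over 5000 peaks, with 18 to 65 on leaving out 1 library. Regions with a control peak fell from 80 to 11 with that fold, 35 without Myc a (35 to 80 on leaving out 1 library) and 5 without both large Myc libraries. The cause of these changes was not tested beyond the fewer peaks and libraries they use. A sign-flip test over 4 libraries allows no p under 0.125, so the LAG-1 and Notch tests of that kind cannot pass 0.05 whatever the size of a difference. The sign-flip test of control peaks allows no p under 0.0312, which is too high to pass after adjustment with the other results.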
